A study of Mus musculus with 8 samples.

Results

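The imprinted growth genes H19, Igf2, Meg3, Rian, Dlk1, Peg3, Cdkn1c, Igf2r, Grb10 and Plagl1 were followed in poly(A) RNA sequencing of mouse myocardium. These 10 genes of the 33249 in the gene table were chosen by name with earlier results of these data in view, so their own fold changes are given as a description with no p-value. The 8 libraries comprised 4 groups of 2. The groups labelled fl/fl-Sham and fl/fl-MI came from Piezo1 fl/fl mice, littermates without the Cre transgene, which GEO's genotype field calls WT. The groups labelled CKO-Sham and CKO-MI came from Piezo1 Cko mice, which carry the same floxed alleles and a tamoxifen-inducible Cre driven by the Myh6 promoter. That promoter is active in cardiomyocytes, so the other cells of the heart were to keep Piezo1. Adult mice underwent a lasting tie of the LAD, the left anterior descending artery of the heart (MI), or the same surgery without the tie (sham), and the MI hearts were taken at day 42.

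Imprinted genes are transcribed mainly from one parental allele, and many act on growth before birth. H19, a noncoding RNA made from the maternal allele, and Igf2, a growth factor made from the paternal allele, lie side by side on chromosome 7 and are abundant in the fetal heart and low in the adult. Igf2r encodes the receptor that takes IGF2 up for breakdown, Cdkn1c the cell cycle inhibitor p57, and Grb10 an adaptor that restrains insulin and IGF receptors. Meg3 and Rian are maternally expressed noncoding RNAs of the Dlk1 domain on chromosome 12, while Peg3 and Plagl1 are paternally expressed zinc finger proteins. The parental allele of a read cannot be told from the deposited values. In bulk tissue, fewer cells of a type and less RNA per cell cannot be told apart.

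Counts per library summed to between 73821747 and 88117573. Low counts pile up at multiples of 4 (1106 genes per library on average had a count of 4, against 469 with 3 and 326 with 5). At 4 counts per read pair the sums stand for 18455437 to 22029393 read pairs. Levels are given as CPM, the count scaled to library size with TMM factors, which compares 1 gene between libraries, and as the deposited FPKM, which also divides by transcript length and compares genes. Those 14028 genes whose FPKM averaged 0.5 or more were compared by edgeR's quasi-likelihood test. The targeted gene Piezo1 had 72.2 to 88.3 CPM in the sham libraries and 53.5 to 64.8 CPM in the MI libraries, and in both states the libraries labelled CKO overlapped with those labelled fl/fl. The paper assessed the deletion by Western blot in isolated adult cardiomyocytes, whereas these values are RNA of whole myocardium. The library labelled fl/fl-MI 2 stood apart from all others in its atrial genes. The atrial gene Bmp10 reached 3834 CPM there and at most 18.8 CPM elsewhere, and Myl4, which encodes an atrial myosin light chain, reached 2810 CPM there and at most 48.0 CPM elsewhere. Results that rest on fl/fl-MI 2 are therefore given with and without it. Its replicate fl/fl-MI 1 was at an end of other marker sums. It had the lowest cardiomyocyte sum of all libraries (15453 CPM, against 33676 CPM in fl/fl-MI 2). It also had the highest fibroblast sum (6440 against 2230 CPM) and cartilage and bone sum (892.3 against 69.0 CPM). Values without fl/fl-MI 2 therefore rest on a library that differed from it in these markers too. Cardiomyocyte markers summed to between 15453 and 33676 CPM in every library, and the skeletal muscle markers Myog, Myh1, Myh2, Myh3 and Myh4 were at 0 in at least 1 library each. The sum of the 8 skeletal muscle markers was nearly all Acta1, skeletal actin, which heart muscle also makes (18.8 to 796.3 CPM). The other 7 summed to between 0.75 and 6.17 CPM.

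The H19 transcript is also the precursor of miR-675, and Igf2 hosts miR-483. The RefSeq mature sequences (GRCm38.p6, both genes on the minus strand) are shown because these are the short products that the host RNAs give rise to, with the seed, bases 2 to 8, in capitals. The libraries were made from poly(A) RNA and did not measure mature miRNAs. The miR-675 hairpin (chr7:142577064-142577147) lies in an exon of 3 H19 transcripts, among them ENSMUST00000136359. The miR-483 hairpin (chr7:142654924-142654996) lies within Igf2 outside the exons annotated in GENCODE M21.
mmu-miR-675-5p: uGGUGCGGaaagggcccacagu
mmu-miR-675-3p: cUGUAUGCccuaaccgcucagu
mmu-miR-483-5p: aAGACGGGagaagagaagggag
mmu-miR-483-3p: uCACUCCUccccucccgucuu
The 4 seeds differ from one another.

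Igf2 starts at several promoters, and the deposited transcript table separates them. For 3 of its transcripts a RefSeq promoter window (GRCm38.p6, minus strand) reached the deposited start. The 100 bases upstream of those starts are printed to show how the promoters differ, with GGGCGG, the core of a GC box, in capitals on either strand. They cover chr7:142657497-142657596, chr7:142661306-142661405 and chr7:142666817-142666916 in that order.
ENSMUST00000000033: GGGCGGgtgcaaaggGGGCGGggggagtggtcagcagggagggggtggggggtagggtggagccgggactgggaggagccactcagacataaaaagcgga
ENSMUST00000105936: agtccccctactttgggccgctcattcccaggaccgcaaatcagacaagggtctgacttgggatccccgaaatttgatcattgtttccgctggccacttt
ENSMUST00000105935: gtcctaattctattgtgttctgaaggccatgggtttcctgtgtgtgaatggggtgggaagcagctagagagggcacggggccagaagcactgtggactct
The first window held 2 copies of GGGCGG and 69% G or C. The other 2 held 0 copies, with 53% and 54% G or C. Of all 32851 RefSeq windows of 100 bases before a gene start, 24.7% held this motif on either strand, and the median G or C content was 55%. TATAAA was in none of the 3 windows and in 5.56% of all windows.

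In the sham hearts the members spanned a wide range of level per length. On the FPKM scale Cdkn1c had a mean of 16.8 (15.1 to 19.99 over the 4 libraries) and H19 one of 14.6 (7.15 to 34.0). Igf2 followed with a mean FPKM of 9.13 (4.44 to 17.3), Igf2r with 7.16 (6.39 to 7.66) and Grb10 with 6.73 (6.27 to 7.05). Each of these neighbours overlapped with the next in the order. Peg3, with a mean FPKM of 3.50 (2.46 to 4.28), lay below every Grb10 value. Meg3 at 1.47 (1.12 to 1.81) lay below every Peg3 value and overlapped with Plagl1 at 1.16 (0.852 to 1.96). Rian at 0.474 (0.403 to 0.596) lay below every Plagl1 value. This order is that of the gene-level FPKM, and the deposited transcript table gave another for the lower members. There, the most abundant Rian transcript had at least 1.96 FPKM in the sham libraries, and that of Plagl1 at most 1.88. The transcripts of Meg3 together had more FPKM than those of Peg3 in each sham library. The reason for the difference was not tested, so the places of Meg3 and Rian depend on the table used.

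H19 was the member with the highest level of any library. Its levels were 23.7 and 21.4 CPM in fl/fl-Sham, 104.0 and 31.0 CPM in CKO-Sham, 8.55 and 320.8 CPM in fl/fl-MI, with 8.88 and 45.5 CPM in CKO-MI. The groups overlapped, and the replicates lay far apart in every group but fl/fl-Sham. Between the 2 fl/fl-MI libraries H19 differed 37.5-fold, between the CKO-MI libraries 5.12-fold and between the CKO-Sham libraries 3.36-fold. The highest value, in fl/fl-MI 2, was 3.08 times the next highest, in CKO-Sham 1. On the FPKM scale H19 reached 141.6 in fl/fl-MI 2 and 3.92 in CKO-MI 1.

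Igf2, the paternally expressed neighbour, also had its highest level in fl/fl-MI 2 and its second highest in CKO-Sham 1. It had 33.0 and 38.3 CPM in fl/fl-Sham and 123.5 and 67.6 CPM in CKO-Sham. After MI it stood at 6.74 and 244.3 CPM in fl/fl-MI, with 5.97 and 9.30 CPM in CKO-MI. Both CKO-MI libraries and fl/fl-MI 1 lay below all 4 sham libraries, and fl/fl-MI 2 lay above all others. The 2 fl/fl-MI libraries differed 36.3-fold.

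Peg3 and Plagl1 had the same 2 libraries at their ends. Peg3 had 43.4 and 50.1 CPM in fl/fl-Sham, 72.7 and 73.82 CPM in CKO-Sham, 16.9 and 122.1 CPM in fl/fl-MI, with 11.9 and 23.9 CPM in CKO-MI. Plagl1, a transcription factor known to act on other imprinted genes, had 8.85 and 8.12 CPM in fl/fl-Sham, 19.2 and 9.64 CPM in CKO-Sham, 6.35 and 66.9 CPM in fl/fl-MI, with 4.50 and 9.05 CPM in CKO-MI. For each of these 4 genes the highest library was fl/fl-MI 2. Among all tested genes 19.9% had their highest level in that library. For Igf2, Peg3 and Plagl1 the lowest library was CKO-MI 1, and for H19 it was fl/fl-MI 1.

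**Figure D1:**
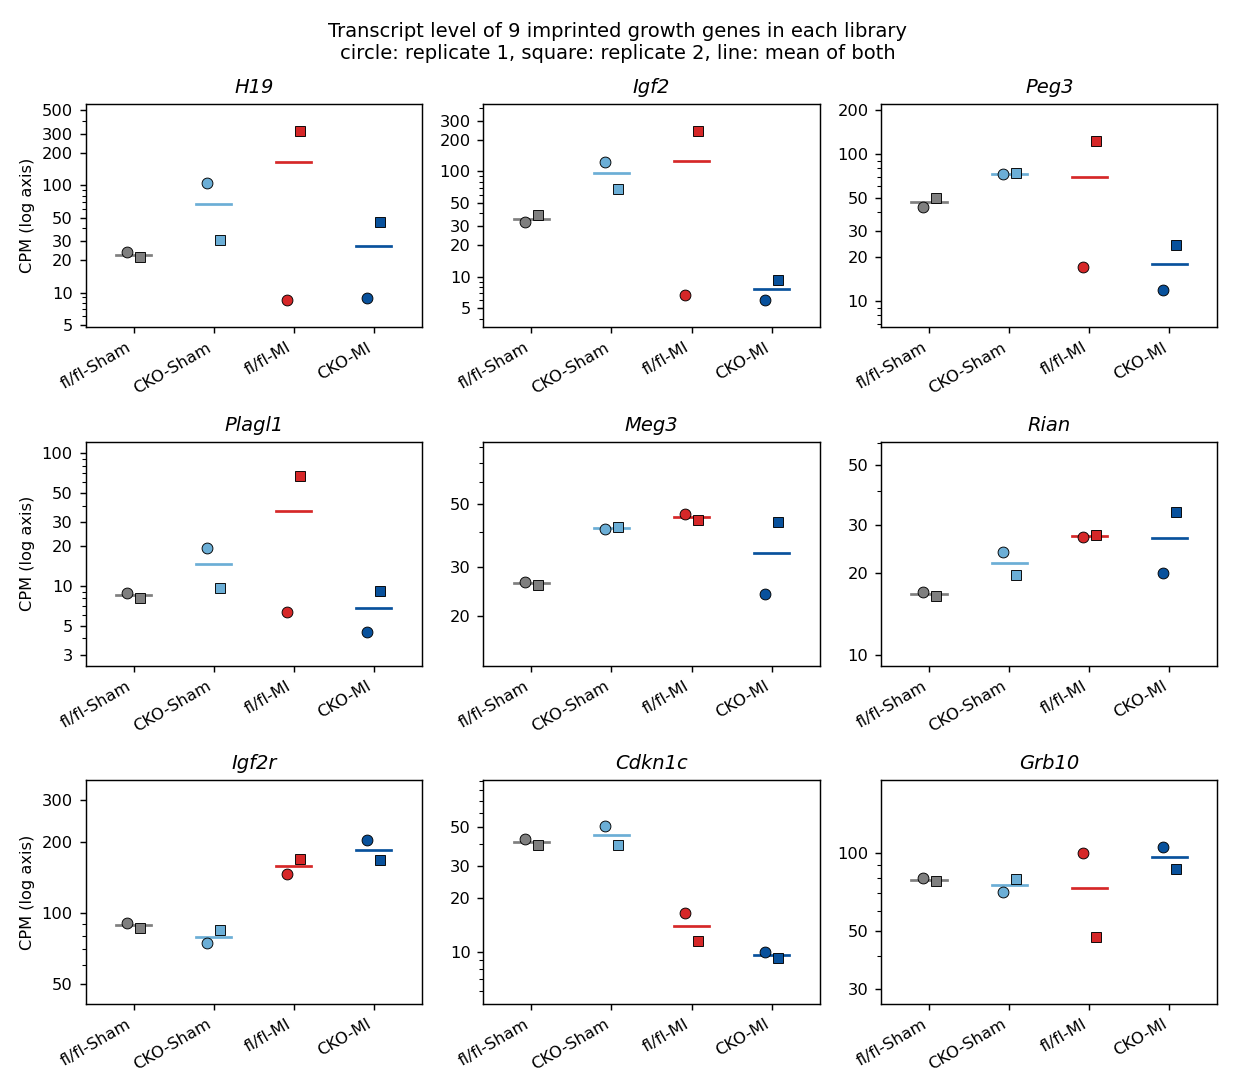
Level of 9 members in each library, in CPM on a log axis, by group. Circles are replicate 1, squares replicate 2 and lines the mean of both. H19, Igf2, Peg3 and Plagl1 are spread widely within fl/fl-MI (8.55 and 320.8 CPM for H19), while the MI libraries of Igf2r (145.7 to 202.3 CPM) and Cdkn1c (9.18 to 16.5 CPM) lie apart from their sham libraries.

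The fold changes of these 4 genes after MI turned with 1 library. In fl/fl-MI against fl/fl-Sham the log2 fold change was 2.87 ± 1.49 (SE) for H19, 1.81 ± 1.23 for Igf2, 0.57 ± 0.77 for Peg3 and 2.11 ± 0.95 for Plagl1. Without fl/fl-MI 2 these values were -1.40, -2.41, -1.47 and -0.42, so all 4 changed sign. In CKO-MI against CKO-Sham they were -1.31 ± 1.41 for H19, -3.65 ± 1.33 for Igf2, -2.03 ± 0.80 for Peg3 and -1.09 ± 0.93 for Plagl1. In CKO all 4 kept their sign whichever library was left out, but the size for H19 and Plagl1 turned on single libraries. The H19 value was -0.19 without CKO-Sham 1, -0.59 without CKO-MI 1, -1.94 without CKO-Sham 2 and -2.93 without CKO-MI 2. For Plagl1 it was -0.51 without CKO-Sham 1, -0.70 without CKO-MI 1 and -1.68 without CKO-MI 2. Igf2 stayed between -4.02 and -3.15 and Peg3 between -2.62 and -1.64. A group with 1 library left out rests on the other library alone, which the fit assumes to vary like the remaining groups.

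The comparison of CKO-MI with fl/fl-MI, which asks what loss of cardiomyocyte Piezo1 does in the infarcted heart, turned in the same way. The log2 fold change was -2.60 ± 1.47 (SE) for H19, -4.04 ± 1.35 for Igf2, -1.96 ± 0.79 for Peg3 and -2.43 ± 0.96 for Plagl1. With the lone library fl/fl-MI 1 as control it was 1.67, 0.18, 0.08 and 0.10. For H19 it was -1.85 without CKO-MI 1 and -4.18 without CKO-MI 2. Over all tested genes edgeR called 0% between these groups at an adjusted p under 0.05, against 1166 genes at an unadjusted p under 0.05, and DESeq2 called 67 genes higher and 140 lower. In CKO-Sham against fl/fl-Sham, where 0.00713% of tested genes were called, H19 was 1.58 ± 1.42 and Igf2 1.42 ± 1.22 on the log2 scale. Without CKO-Sham 1 these values were 0.46 and 0.92. For the interaction of genotype and MI 0% of tested genes were called by edgeR, against 1191 at an unadjusted p under 0.05 and 60 higher and 71 lower by DESeq2.

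**Figure D2:**
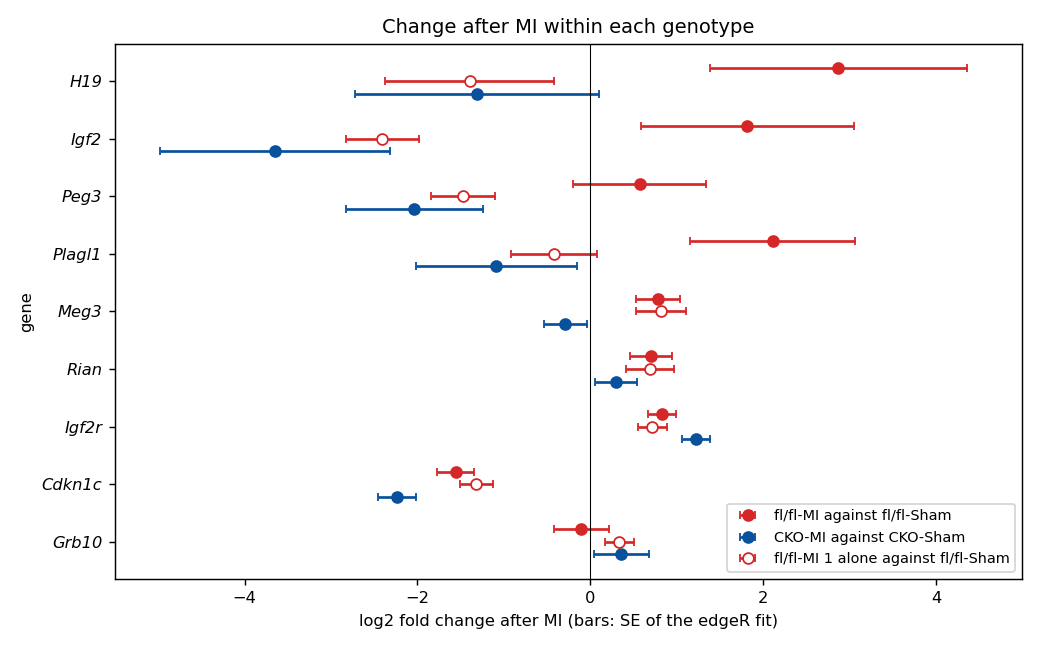
Log2 fold change after MI of 9 members (points, with the SE of the edgeR fit as bars) in fl/fl (filled red), in CKO (filled blue) and in fl/fl with fl/fl-MI 1 as the only MI library (open red). The open points of H19, Igf2, Peg3 and Plagl1 lie left of 0 and their filled red points right of 0, while Igf2r (0.83 and 0.72) and Cdkn1c (-1.56 and -1.32) keep their side.

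Markers of other tissues were set beside H19 in the same libraries. The 5 atrial markers Bmp10, Myl4, Myl7, Sln and Nppa summed to 19857 CPM in fl/fl-MI 2 and to between 135.0 and 4450 CPM in the other libraries, and all 5 were highest in fl/fl-MI 2. Outside fl/fl-MI 2 this sum was mostly Nppa (106.5 to 4419 CPM). In CKO-Sham 1, where H19 was 3.36 times its level in CKO-Sham 2, the atrial sum was 135.0 CPM, against 593.7 CPM in CKO-Sham 2. In CKO-MI 2, where H19 was 5.12 times its level in CKO-MI 1, Bmp10 was at 11.2 CPM and at 12.6 CPM in CKO-MI 1. The 7 markers of epicardium and mesothelium summed to 24.3 to 27.9 CPM in the sham libraries, 114.2 and 199.3 CPM in fl/fl-MI, with 36.4 and 79.7 CPM in CKO-MI, and 6 of the 7 were highest in fl/fl-MI 2. The endothelial gene Vwf was highest in CKO-Sham 1 (277.5 CPM) and fl/fl-MI 2 (251.0 CPM), the 2 libraries with the most H19, and lay between 61.5 and 123.9 CPM elsewhere. As a list, the 7 endothelial markers summed to 1889 CPM in CKO-Sham 1 against 1542 to 1667 CPM in the other sham libraries, and to 966.0 CPM in fl/fl-MI 2 against 585.1 to 730.6 CPM in the other MI libraries. Of the 7, 5 were highest in CKO-Sham 1 and 0 in fl/fl-MI 2, whose sum lay below that of every sham library. The part of atrial, epicardial or endothelial tissue in the H19 level was not tested.

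By the root mean square difference of centred log2(CPM + 1) over the 8 libraries, the gene outside the members with a profile most like that of H19 was Ahsg, which encodes fetuin-A (difference 0.61). It was followed by Agt, the gene of angiotensinogen (0.83), Npr3, which encodes the clearance receptor of natriuretic peptides (0.84), Aif1l (0.84) and Tmem108 (0.90). Of the members, Plagl1 came nearest to H19 with 0.67, the second smallest difference of all tested genes, and Peg3 (0.95) and Igf2 (0.96) stood at ranks 9 and 10. Ahsg had 3.79 and 5.29 CPM in fl/fl-Sham, 19.04 and 10.1 CPM in CKO-Sham, 5.77 and 72.5 CPM in fl/fl-MI, with 3.45 and 11.6 CPM in CKO-MI. The likeness rests largely on fl/fl-MI 2, where all 5 of these genes had their highest level. Npr3, with 212.6 CPM in fl/fl-MI 2 and 104.5 CPM in CKO-Sham 1, also had the same 2 highest libraries as H19, and so did Ahsg, Aif1l and Tmem108. For Agt the second highest library was CKO-MI 2 (23.2 CPM).

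**Figure D3:**
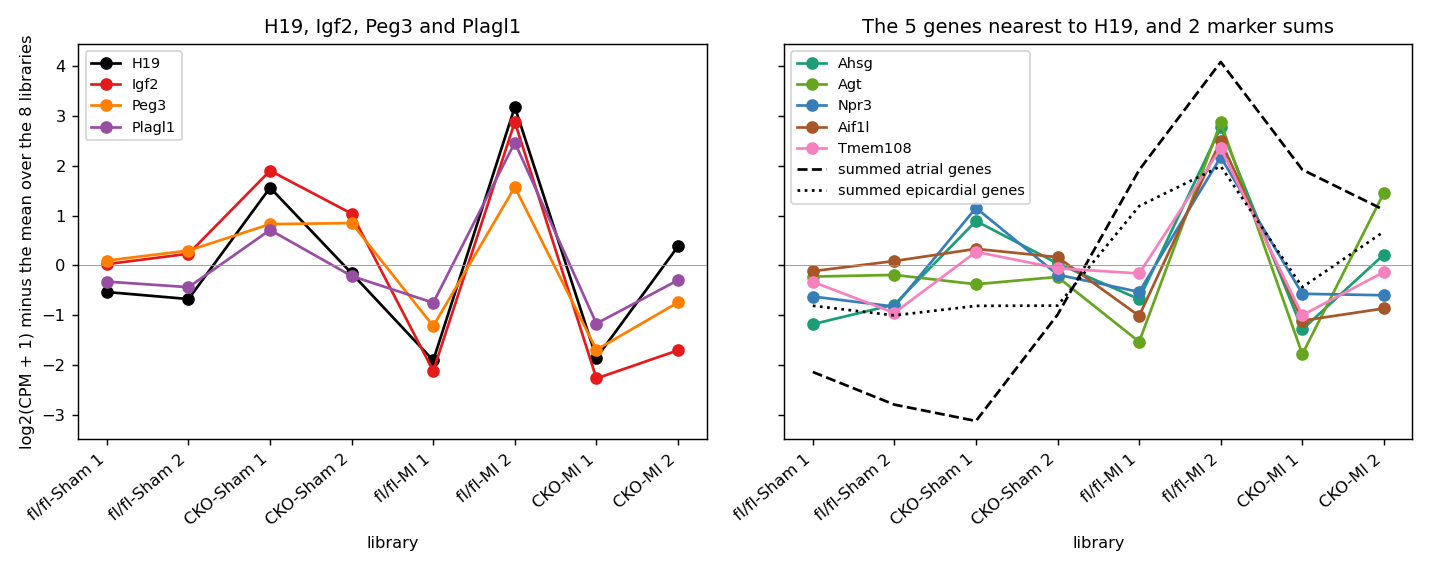
Log2(CPM + 1) minus the mean over the 8 libraries, by library, for H19, Igf2, Peg3 and Plagl1 (left) and for the 5 genes with profiles nearest to H19 and the summed atrial (dashed) and epicardial (dotted) markers (right). All lines peak in fl/fl-MI 2. On the left, H19, Igf2 and Plagl1 have a second peak in CKO-Sham 1, where the atrial sum is at its lowest (135.0 CPM, of which Nppa 106.5 CPM). On the right, Ahsg, Npr3, Aif1l and Tmem108 have their second highest level there.

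The 2 members of the Dlk1 domain that were tested varied far less. Meg3 had 26.5 and 25.9 CPM in fl/fl-Sham, 40.8 and 41.4 CPM in CKO-Sham, 46.3 and 43.9 CPM in fl/fl-MI, with 24.1 and 43.2 CPM in CKO-MI. Both fl/fl-MI libraries lay above both fl/fl-Sham libraries (log2 fold change 0.78 ± 0.25, SE), and both CKO-Sham libraries did so too (0.65 ± 0.25). CKO-MI 1 had the lowest Meg3 of all libraries, and its change between CKO-Sham and CKO-MI was -0.29 ± 0.25 on the log2 scale. It was 0.05 without CKO-MI 1 and -0.77 without CKO-MI 2. On the deposited FPKM scale, where the median of all tested genes rose by 0.39 to 0.54 in this comparison, it was 0.16 to 0.21. Rian had 17.0 and 16.5 CPM in fl/fl-Sham, 24.0 and 19.8 CPM in CKO-Sham, 27.1 and 27.6 CPM in fl/fl-MI, with 20.1 and 33.6 CPM in CKO-MI. After MI its log2 fold change was 0.71 ± 0.24 in fl/fl and 0.30 ± 0.24 in CKO, and it too had its lowest MI level in CKO-MI 1. The CKO value was 0.60 without CKO-MI 1 and -0.12 without CKO-MI 2.

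The profile of Meg3 was nearest to those of Ttc8, a component of the ciliary BBSome (difference 0.14), Igf1, the growth factor related to IGF2 (0.16), Tmod2, a tropomodulin (0.16), Acp5, tartrate-resistant acid phosphatase (0.18), and the macrophage gene Cd68 (0.18). Rian stood at rank 53 with 0.23. Igf1 had 21.2 and 16.9 CPM in fl/fl-Sham, 26.5 and 29.9 CPM in CKO-Sham, 36.2 and 38.3 CPM in fl/fl-MI, with 19.5 and 39.1 CPM in CKO-MI. As with Meg3, CKO-MI 1 was the lowest of the 4 MI libraries.

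Dlk1, a membrane protein related to the Notch ligands and made by fetal and progenitor cells, was at or near the limit of detection. Its deposited counts were 4 and 0 in fl/fl-Sham, 43 and 6 in CKO-Sham, 24 and 25 in fl/fl-MI, and 0 and 25 in CKO-MI. The counts of 0 allow up to 3 read pairs, which at 4 counts each are 12 counts, or 0.19 CPM in fl/fl-Sham 2 and 0.142 CPM in CKO-MI 1. These limits cover counting error only. Dlk1 did not pass the filter on low values, so 9 of the 10 members were tested. Of the other genes of this domain, Mirg lay between 0.437 and 1.58 CPM and Rtl1 between 0.0545 and 0.412 CPM.

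Igf2r and Cdkn1c were the 2 members whose MI libraries did not overlap with the sham libraries. Igf2r had 90.6 and 86.5 CPM in fl/fl-Sham, 74.1 and 84.4 CPM in CKO-Sham, 145.7 and 168.6 CPM in fl/fl-MI, with 202.3 and 167.4 CPM in CKO-MI. All 4 MI libraries lay above all 4 sham libraries, with a log2 fold change of 1.02 ± 0.11 (SE) averaged over both genotypes, 0.83 ± 0.16 in fl/fl and 1.22 ± 0.16 in CKO. Cdkn1c had 42.9 and 39.5 CPM in fl/fl-Sham, 50.8 and 39.4 CPM in CKO-Sham, 16.5 and 11.5 CPM in fl/fl-MI, with 9.97 and 9.18 CPM in CKO-MI. All 4 MI libraries lay below all 4 sham libraries, with a log2 fold change of -1.90 ± 0.15 averaged over both genotypes, -1.56 ± 0.21 in fl/fl and -2.23 ± 0.22 in CKO. Leaving out any 1 library kept the averaged value between 0.93 and 1.07 for Igf2r and between -2.06 and -1.78 for Cdkn1c. Smooth muscle and endothelial markers were, like Cdkn1c, lower in the MI than in the sham libraries. The 7 smooth muscle and pericyte markers summed to 1372 to 1495 CPM in the sham and 524.2 to 747.1 CPM in the MI libraries, with 3 of 7 called lower. The 7 endothelial markers summed to 1542 to 1889 CPM in the sham and 585.1 to 966.0 CPM in the MI libraries, with 6 of 7 called lower. The 9 fibroblast markers were, like Igf2r, higher after MI (1420 to 1568 CPM in the sham, 2230 to 6440 CPM in the MI libraries, 7 of 9 called higher). Epicardial and cartilage sums were also higher in all MI libraries, and the adipocyte sum lower. Within the MI libraries the order differed. There, fl/fl-MI 1 had the highest fibroblast sum (6440 CPM) with the lowest Igf2r (145.7 CPM). It also had the lowest endothelial sum (585.1 CPM) with the highest Cdkn1c (16.5 CPM). These markers were not a full list of what changed. The part of any of these cell types in either change was not tested.

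Grb10 had 80.1 and 77.7 CPM in fl/fl-Sham, 71.0 and 79.4 CPM in CKO-Sham, 99.7 and 47.3 CPM in fl/fl-MI, with 105.8 and 86.8 CPM in CKO-MI. Here fl/fl-MI 2 was the lowest library, and the other 3 MI libraries lay above all sham libraries. The log2 fold change after MI averaged over both genotypes was 0.13 ± 0.23 (SE). It was 0.35 without fl/fl-MI 2 and -0.21 without fl/fl-MI 1, so its sign turned with the fl/fl-MI library used.

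After MI, averaged over both genotypes, 2 of the 9 tested members (Igf2r and Cdkn1c) were among the called genes, while 40.4% of all tested genes were called. The same 2 members were called in fl/fl, where 18.5% of all tested genes were called, and in CKO, where the share was 24.7%. A separation of all 4 MI libraries from all 4 sham libraries was seen for 2 of the 9 members and for 40.4% of all tested genes. Since the members were chosen with results in view, nothing is read from these counts. The median log2 fold change averaged over both genotypes was 0.25 over the 9 tested members and 0.03 over all tested genes. By genotype the median of the 9 was 0.78 in fl/fl and -1.09 in CKO, where all tested genes had 0.05 and 0.01. Without fl/fl-MI 2 the members' median was -0.42 in fl/fl and -0.75 averaged over both genotypes, so both changed sign with that library.

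The transcript table shows which RNAs made up these levels. H19 had 5 transcripts, and ENSMUST00000136359, with 5 exons and 2286 bases, took 96.1% to 99.4% of its FPKM in every library. Igf2 had 6 transcripts, of which 3 carried nearly all of the FPKM. In fl/fl-Sham, ENSMUST00000000033, the one with the 2 GC boxes upstream, took 21.2% and 31.8%, and in CKO-Sham 33.7% and 31.7%. After MI it took 85.6% and 48.2% in fl/fl-MI and 67.2% and 28.3% in CKO-MI. The libraries in which it took the most, fl/fl-MI 1 and CKO-MI 1, were the 2 with the lowest Igf2, where the summed gene count was 713 and 505. ENSMUST00000105936 took 23.0% to 38.9% in the sham libraries, 3.58% and 24.1% in fl/fl-MI and 30.6% and 22.2% in CKO-MI. ENSMUST00000121128 took 55.0% and 28.9% in fl/fl-Sham, 31.4% and 31.4% in CKO-Sham, 10.9% and 26.9% in fl/fl-MI, and 1.81% and 48.6% in CKO-MI. ENSMUST00000105935 took at most 0.656%. The transcripts share most of their length, so the split is an estimate made by the authors' software and was not tested.

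Peg3 showed the sharpest difference in the deposited split. ENSMUST00000239104 took 78.0% to 89.6% of the Peg3 FPKM in the 4 sham libraries and 89.9% in CKO-MI 1. In fl/fl-MI 1, fl/fl-MI 2 and CKO-MI 2 it took 0%, 3.18% and 3.78%, and ENSMUST00000051209 took 86.9%, 84.3% and 90.6% there. Both transcripts have the same ends and 9 exons, and they differ by 292 bases in length. A share this far to one side in each library, between 2 transcripts so alike, is read here only as the deposited split. Whether the RNA itself differed was not tested.

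**Figure D4:**
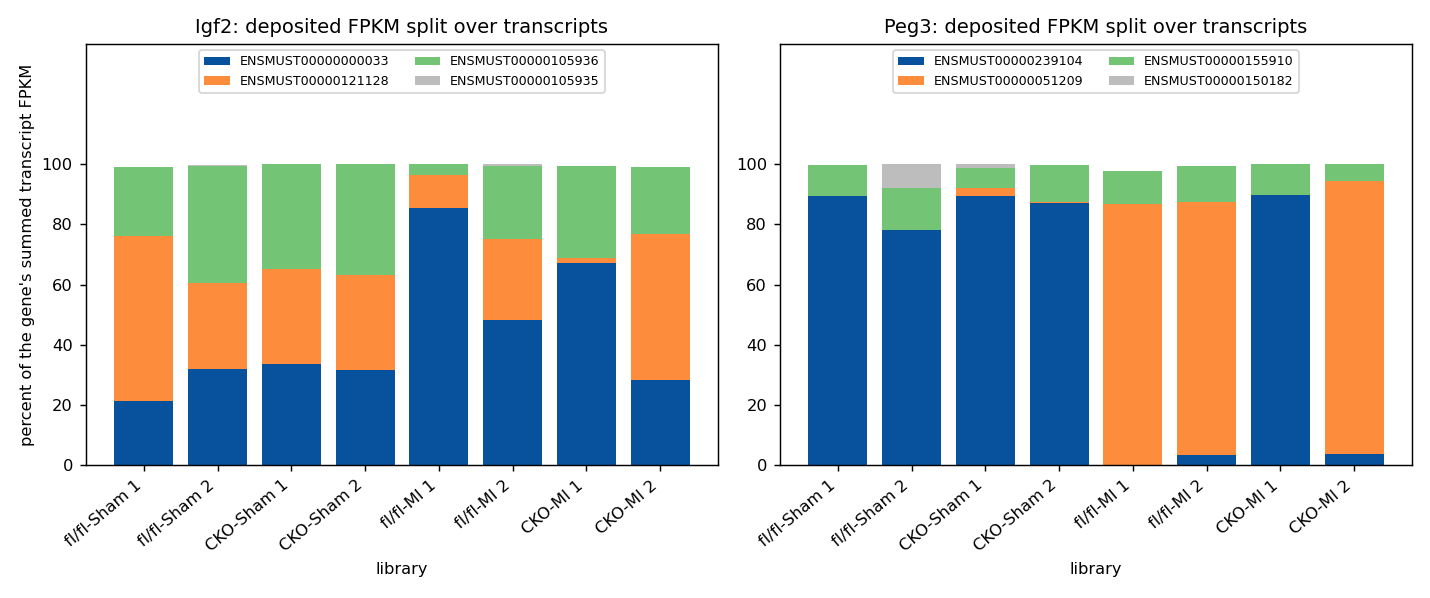
Percent of the summed transcript FPKM taken by each of the 4 most abundant transcripts of Igf2 (left) and Peg3 (right), by library, from the deposited transcript table. For Igf2 the blue share is largest in fl/fl-MI 1 (85.6%) and CKO-MI 1 (67.2%), and for Peg3 the blue transcript leads in the sham libraries and CKO-MI 1 and the orange one in the other 3 MI libraries.

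Of 46 other imprinted genes on a list, 44 were in the table and 24 were tested. This list, and those of IGF2 partners and imprint maintenance genes below, were drawn up with earlier results of these data known. Their adjusted p-values and call counts are therefore a description of these libraries. After MI, averaged over both genotypes, 3 rose and 5 fell at an adjusted p under 0.05 (edgeR with Benjamini-Hochberg adjustment), and 16 did not pass. Their median log2 fold change was -0.004, against 0.03 over all tested genes, and the 8 of 24 called stand beside the 40.4% of all tested genes called. The split depended on the scale, since limma on the FPKM values, whose median over all genes was higher by 0.41 to 0.56 after MI, called 11 of the 24 higher and 1 lower with either pseudocount. Without fl/fl-Sham 2 or CKO-Sham 2 the count was 4, and without CKO-Sham 1 it was 5. Within genotypes 4 were called in fl/fl and 4 in CKO. The count in fl/fl was 0 without either fl/fl-Sham library, 2 without either CKO-Sham library, 9 without fl/fl-MI 1, and 10 without fl/fl-MI 2. The count in CKO was 0 without CKO-Sham 1, 1 without CKO-Sham 2 or CKO-MI 1, 2 without CKO-MI 2 or either fl/fl-Sham library, and 8 without either fl/fl-MI library.

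The genes that rose were Osbpl5, Ube3a and Sgce. Osbpl5, which encodes a lipid transfer protein, had 16.7 to 18.0 CPM in the sham and 24.6 to 35.6 CPM in the MI libraries (log2 fold change 0.85 ± 0.15, adjusted p = 0.00491). Ube3a, a ubiquitin ligase, had 46.2 to 49.8 CPM in the sham and 61.2 to 90.5 CPM in the MI libraries (0.72 ± 0.11, adjusted p = 0.00347). For both genes all MI libraries lay above all sham libraries. Sgce, epsilon-sarcoglycan, rose by 0.34 ± 0.10 (adjusted p = 0.0371). Its sham and MI libraries overlapped, and its call was lost when any library but fl/fl-MI 2 was left out (adjusted p = 0.0634 to 0.13).

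The genes that fell were Snhg14, Ppp1r9a, Airn, Commd1 and Peg13. Snhg14, the long host RNA of a snoRNA cluster next to Ube3a, had 27.3 to 66.1 CPM in the sham and 3.59 to 9.35 CPM in the MI libraries. Its log2 fold change was -3.04 ± 0.31 (adjusted p = 0.000971), and it was called in fl/fl (-2.33) and in CKO (-3.74) as well. The call in fl/fl was lost without fl/fl-Sham 1 or fl/fl-Sham 2, and when only the libraries compared were fitted. The call in CKO was lost without CKO-Sham 1. By limma the averaged value was -0.92 on log2(FPKM + 1) and -2.10 on log2(FPKM + 0.1), and both were called (adjusted p = 0.000982 and 0.000883). In the deposited table Snhg14 ends 1196 bases from Ube3a on the opposite strand, so the 2 annotated genes do not overlap. Ppp1r9a, which encodes the actin-binding protein neurabin, fell by 1.06 on the log2 scale (SE 0.21, adjusted p = 0.0087), from at least 38.1 CPM in the sham libraries to at most 31.7 CPM in the MI libraries. On the FPKM scale its adjusted p was 0.0531 to 0.058.

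Airn, the RNA made antisense to Igf2r from the paternal allele, had 12.3 to 17.9 CPM in the sham and 3.59 to 13.9 CPM in the MI libraries. It fell by 1.05 on the log2 scale (SE 0.27, adjusted p = 0.021), while Igf2r was at 1.02. By genotype Airn was at -1.62 ± 0.39 in fl/fl and -0.49 ± 0.38 in CKO, and Igf2r at 0.83 and 1.22. The call of Airn was lost without fl/fl-Sham 1, fl/fl-Sham 2, CKO-Sham 2 or CKO-MI 1 (adjusted p = 0.0518 to 0.0739) and on the FPKM scale (adjusted p = 0.147 to 0.189). The 2 genes overlap by 28354 bases on opposite strands, and it is not given whether counting used strand, so reads of the shared stretch may be split between them. Commd1, which acts in copper handling, fell by 0.46 (SE 0.11, adjusted p = 0.0151), and Peg13, a noncoding RNA inside Trappc9 on the same strand, fell by 0.42 (SE 0.10, adjusted p = 0.018). Both calls were lost without fl/fl-Sham 2, CKO-Sham 1 or CKO-Sham 2, and that of Peg13 also without fl/fl-Sham 1 (adjusted p = 0.0536 to 0.07). On the FPKM scale, where the median of all genes rose by 0.41 to 0.56, the log2 fold changes of Commd1 and Peg13 were 0.08 to 0.10 and 0.13 to 0.14 and did not pass.

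Without fl/fl-MI 2, 14 of the 24 other imprinted genes were called after MI, 3 higher and 11 lower. Snrpn, which encodes a small nuclear ribonucleoprotein, then had a log2 fold change of -0.90 (adjusted p = 0.000584), against -0.39 (adjusted p = 0.351) with all libraries. Snrpn, Kcnq1, Mest, Nnat, Ndn, Impact, Zrsr1, Slc38a4 and Trappc9 had their highest level in fl/fl-MI 2, which makes 9 of 24 and stands beside the 19.9% of all tested genes.

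Between genotypes 0 of the 24 were called in the MI hearts (3 at an unadjusted p under 0.05, 0 by DESeq2 and limma) and 0 in the sham hearts (0 at an unadjusted p under 0.05, 0 by DESeq2 and limma). With fl/fl-MI 1 left out, 6 passed, but fl/fl-MI 2, the library with the high atrial genes, was then the lone control, so these values describe that library. Among them Snrpn was at -1.33, Kcnq1 at -1.41 and Nnat at -1.71, and Ube3a was at 0.55. The interaction gave 0 calls of 24 in edgeR (4 at an unadjusted p under 0.05), 0 in limma and 1 in DESeq2.

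Some other genes of the members' domains had a mean FPKM under 0.5 and were not tested. Kcnq1ot1, the antisense RNA of the Cdkn1c domain, lay between 5.26 and 9.26 CPM over a long gene, so its mean FPKM was 0.073. All MI libraries (at most 6.40 CPM) lay below all sham libraries (at least 7.52 CPM). Among all tested genes 40.4% had their MI libraries all above or all below the sham libraries. Kcnq1ot1 lies within Kcnq1 on the opposite strand, so its counts are uncertain. Usp29, the neighbour of Peg3, had 2.86 CPM in fl/fl-MI 2 and at most 0.504 CPM elsewhere. Ddc, in the Grb10 domain, lay between 1.09 and 2.86 CPM.

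IGF2 acts through receptors and binding proteins, and 11 of the 15 listed were tested. After MI, averaged over both genotypes, 6 of the 11 rose and 0 fell (8 at an unadjusted p under 0.05, all higher). The median log2 fold change was 0.75, beside 0.03 and 40.4% called over all tested genes. By genotype 4 were called in fl/fl and 3 in CKO, beside 18.5% and 24.7% of all tested genes. Only Igfbp6 was called in both. In fl/fl and CKO the log2 fold change was 3.33 and 1.16 for Irs2 and 1.54 and 0.57 for Igfbp4. It was 0.63 and 0.08 for Igf1r and 0.43 and 1.06 for Insr. The interaction gave 0 calls of 11. The single genes follow as averages over both genotypes. The 9 fibroblast markers were also higher after MI (2230 to 6440 CPM in the MI against 1420 to 1568 CPM in the sham libraries). Their part in the values of this list was not tested. Irs2, an adaptor of the insulin and IGF1 receptors, rose by 2.24 ± 0.40 (adjusted p = 0.00552), from 5.27 to 9.79 CPM in the sham to 11.3 to 85.7 CPM in the MI libraries, highest in fl/fl-MI 2. Igfbp6, a binding protein that prefers IGF2, rose by 1.53 ± 0.19 (adjusted p = 0.00165), from 19.5 to 23.8 CPM to 50.6 to 87.2 CPM. Igfbp4, another binding protein, rose by 1.06 ± 0.21 (adjusted p = 0.0087), although CKO-MI 1 at 114.3 CPM lay below CKO-Sham 1 at 124.5 CPM. The insulin receptor Insr rose by 0.75 ± 0.12 (adjusted p = 0.00403), from 81.1 to 100.1 CPM to 114.8 to 182.5 CPM. Igf2bp2, which binds the Igf2 mRNA, rose by 0.69 ± 0.15 (adjusted p = 0.0122), and the receptor Igf1r by 0.36 ± 0.10 (adjusted p = 0.0256). The call of Igf2bp2 was lost without fl/fl-Sham 1 or CKO-Sham 1 (adjusted p = 0.0523 to 0.0554), and that of Igf1r without any library but CKO-Sham 2 and those of fl/fl-MI (adjusted p = 0.0686 to 0.103).

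Of 13 genes that keep or erase imprints, 11 were tested, and 3 fell and 0 rose after MI, with a median log2 fold change of -0.14, beside 0.03 and 40.4% called over all tested genes. In contrast, limma on the FPKM scale called 5 of the 11 higher and 0 lower with either pseudocount. On that scale the median of all tested genes rose by 0.41 to 0.56. There, 7027 and 7129 of all tested genes were called higher with the 2 pseudocounts, and 837 and 825 lower. The direction of the calls in this list thus depended on the scale, as it did over all genes. Tet2, which oxidises methylated cytosine, fell by 0.84 (SE 0.16, adjusted p = 0.00675), from 35.1 to 56.8 CPM in the sham to 19.9 to 28.3 CPM in the MI libraries. Setdb1, a histone methyltransferase, fell by 0.55 (SE 0.17, adjusted p = 0.036). Zfp445, a zinc finger protein of imprinting control regions, fell by 0.55 (SE 0.15, adjusted p = 0.0237), from 130.3 to 144.2 CPM to 73.5 to 113.7 CPM. For all 3 the MI libraries lay below the sham libraries. The calls of Setdb1 (adjusted p = 0.0776 to 0.111) and Zfp445 (adjusted p = 0.0591 to 0.0785) were lost without any sham or CKO-MI library. On the FPKM scale both were near 0, and Tet2 did not pass (adjusted p = 0.275 to 0.286). Ctcf, the insulator protein of the H19 and Igf2 control region, was at -0.25 ± 0.11 and did not pass (adjusted p = 0.114).

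**Figure D5:**
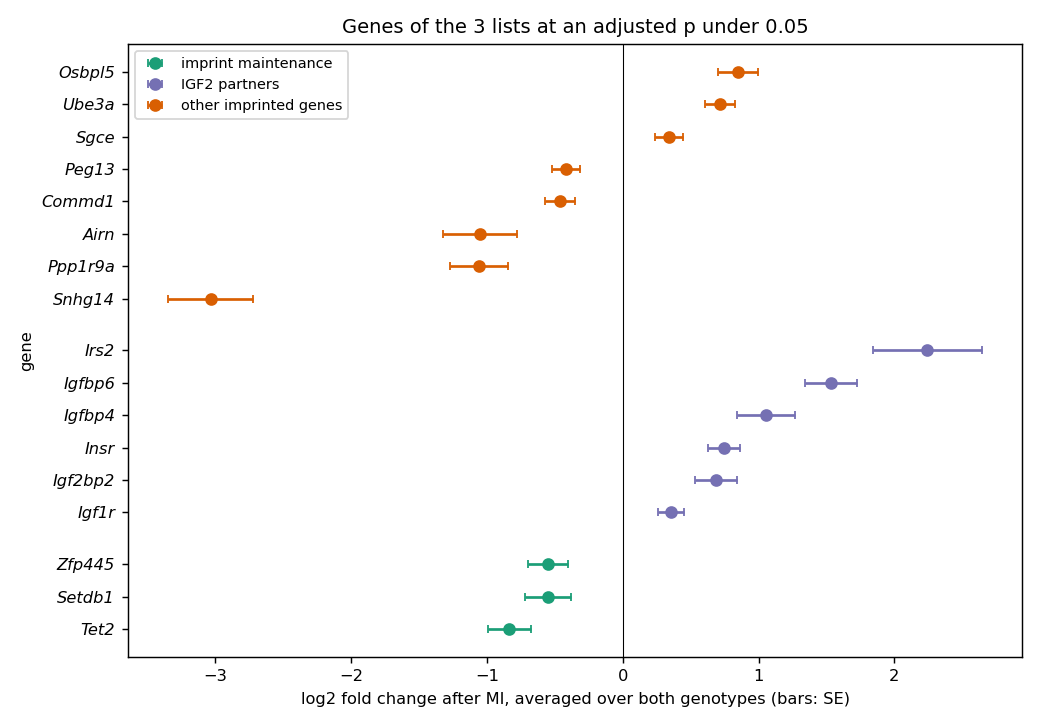
Log2 fold change after MI averaged over both genotypes (points, with SE as bars) of the genes of the 3 lists at an adjusted p under 0.05. Snhg14 lies farthest to the left at -3.04 and Irs2 farthest to the right at 2.24.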

How the data were processed

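Libraries were grouped by their deposited labels, 2 per group. Poly(A) RNA was selected by the authors and sequenced from paired ends. The submitters' processing notes name cutadapt 1.9 and FastQC, and which aligner, counting tool and annotation were used is not given in the sources used here. The deposited gene and transcript tables hold a whole-number count, not normalized by the authors, and the authors' FPKM. All 10 members were found in GENCODE M21 (GRCm38) by identifier, 5 with the same coordinates. Members and lists were chosen with earlier results of these data known. Counts were fitted with edgeR 4.0.16 in R 4.3.3 (TMM, mean FPKM of at least 0.5, a mean per group over all 8 libraries, Benjamini-Hochberg adjustment, threshold 0.05), and the code was tested on simulated data. Each SE was the log2 fold change divided by the root of its F statistic. Named were the members, genes of their domains, up to 6 called genes per direction of each list, and the 5 genes with profiles nearest to H19 and Meg3. Alternatives used DESeq2 1.42.0 and limma 3.58.1. Whether replicates came from separate mice is not stated, so p-values measure the spread between these samples. Genes of the mitochondrial chromosome held 43.1% to 46.4% of sham counts and 19.9% to 24.2% of MI counts. Samples with the same number did not pair (correlations of deviations from -0.21 to 0.0553). The replicates of every group differed by more than sampling noise.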

Additional observations from a re-analysis of the deposited data

Results flagged for a closer look

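Sgce, epsilon-sarcoglycan, had its MI libraries above the sham libraries in fl/fl and below them in CKO, where the gap was small and the change did not pass the test. It had 19.6 and 20.2 CPM in fl/fl-Sham and 37.9 and 31.5 CPM in fl/fl-MI. Its levels were 26.4 and 22.6 CPM in CKO-Sham and 22.4 and 22.4 CPM in CKO-MI. The log2 fold change was 0.80 ± 0.15 (SE) in fl/fl (adjusted p = 0.0143) and -0.13 ± 0.15 in CKO (adjusted p = 0.548). The call in fl/fl was lost without fl/fl-Sham 1 or fl/fl-Sham 2, and when only the libraries compared were fitted. Every fl/fl-MI library lay above every fl/fl-Sham library, and every CKO-MI library below every CKO-Sham library. The difference between the 2 effects was -0.93 ± 0.21 on the log2 scale. It did not pass edgeR's test of the interaction (adjusted p = 0.56) and passed that of DESeq2 (-0.92 ± 0.26, adjusted p = 0.0454).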

How the results depend on the processing

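Directions of Igf2r and Cdkn1c after MI held under all alternatives run, and those of H19, Igf2, Peg3 and Plagl1 in fl/fl turned without fl/fl-MI 2. With the replicate number as a block, 8 of the other imprinted genes were called after MI averaged over both genotypes, 3 in fl/fl and 4 in CKO, 0 in each remaining comparison, and 8 of the IGF2 partners and imprint maintenance genes, where Setdb1 was lost (adjusted p = 0.0528). Over libraries left out in turn, the calls among the other imprinted genes ranged from 4 to 14 averaged over both genotypes, 0 to 10 in fl/fl, 0 to 8 in CKO, 0 to 6 for CKO-MI against fl/fl-MI and 0 to 2 for the interaction, and from 5 to 12 in the IGF2 partners and imprint maintenance lists (main value 9). At a mean FPKM of at least 5, fewer genes were tested, and 3, 2 and 2 other imprinted genes were called averaged, in fl/fl and in CKO, and 4 genes of the IGF2 partners and imprint maintenance lists. An unadjusted p under 0.05 with at least 2-fold change gave 3 averaged, 2 in CKO, 1 for CKO-MI against fl/fl-MI, 2 for the interaction and 3 in the IGF2 partners and imprint maintenance lists. In fl/fl, fitting only the libraries compared gave 0, DESeq2 8, limma on log2(FPKM + 1) 8 and on log2(FPKM + 0.1) 9, and DESeq2 gave 1 for the interaction. Both limma fits gave 15 genes in the IGF2 partners and imprint maintenance lists, all higher, where the median of all genes rose. The cause of the other differences was not tested. Directions turned under limma on log2(FPKM + 1) for Commd1 (0.0835), Peg13 (0.1283), Setdb1 (0.0009) and Zfp445 (0.0006), and on log2(FPKM + 0.1) for Commd1 (0.1016), Peg13 (0.1388) and Zfp445 (0.0002). Of the other settings of single genes, 858 of the members' values stayed within 1 SD of the replicates and 72 did not, and 220 of the list genes' calls were kept and 51 lost. Dlk1, Rtl1, Mirg and Usp29 did not pass the filter on FPKM, and Dlk1 was at or near the limit of detection.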
